A study of Mus musculus with 145 samples.

Results

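Insertions of the piggyBac transposon were examined in 9 genes that restrain RAS signalling beside Nf1: the RAS GTPase-activating protein genes Rasa1, Rasa2, Rasa3, Rasal2 and Dab2ip, the Sprouty-related genes Spred1, Spred2 and Spred3, and Lztr1. They were chosen by name among the 13391 gene regions of the deposited table, matched on the gene identifier, and all 9 had a region there. The tumours arose in mice that carried the alleles WAP-Cre, LSL-PB, LSL-PIK3CA(H1047R) and ATP1. In these animals Cre under the WAP promoter, which is switched on in the mammary gland late in pregnancy, turns on the piggyBac transposase and an activated PI3K alpha, so that both groups carry the same driver mutation and the same mobile element ATP1. The 51 resistant tumours came from 25 mice that received 30 mg/kg BYL719 (alpelisib, an inhibitor of PI3K alpha) daily from a tumour volume of 250 mm3, and had grown under treatment at 3 or more successive measurements within 3 weeks. The 94 untreated tumours came from another 23 mice with the same genotype and no drug. No ages are in the labels, and the DNA is that of whole tumours from the mammary fat pad, so the cells that carried an insertion were not separated from the others.

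RAS proteins are switched on by binding GTP, and RAS GTPase-activating proteins switch them off by speeding the breakdown of that GTP. SPRED proteins bring neurofibromin, the product of Nf1 and the best known RAS GTPase-activating protein, to the cell membrane, and LZTR1 is the adaptor that presents RAS proteins to a ubiquitin ligase built on CUL3. Active RAS drives the MAP kinase cascade and also binds PI3K directly, which makes these genes of interest in tumours that grow while PI3K alpha is inhibited. A piggyBac element inserts at the sequence TTAA, and the ATP1 element can disrupt a gene or, depending on orientation, drive what lies downstream of it.

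A gene counted as hit in a tumour where that tumour's library held 10 or more reads at any site inside the gene region. A position and strand found in several libraries was kept only in the library with the most reads. The 9 regions held 139 listed sites, of which 132 had a read in any library and 83 passed these rules. Of the 83 kept sites, 48 were from resistant and 35 from untreated tumours. Per 10000 kept sites of the group this is 12.9 for the resistant and 5.49 for the untreated tumours. This base takes in sites outside gene regions and on chromosome 10, which holds the donor element. The same rate was not computed for gene regions in general, so the difference cannot be called particular to these genes. All members but Spred3 had a kept site. Spred3, the shortest region at 13 kb, had a single site with 1 read in an untreated tumour.

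For each gene its most read site is printed first. Reads were not scaled for the depth of the library, so a printed site need not hold the highest share of its tumour's reads. Each sequence is the context of the site in the deposited table, read on the strand of the insertion, with the TTAA target in capitals, and positions are on mm10.
Rasa1, chromosome 13, position 85242403, plus strand, resistant tumour 44, 360 reads: TTAAatca
Rasa2, chromosome 9, position 96601851, minus strand, resistant tumour 26, 904 reads: TTAAgcag
Rasa3, chromosome 8, position 13646212, plus strand, resistant tumour 11, 38 reads: TTAAaagc
Rasal2, chromosome 1, position 157336687, minus strand, resistant tumour 35, 632 reads: TTAAgaat
Dab2ip, chromosome 2, position 35607479, minus strand, untreated tumour 56, 191 reads: TTAAgaag
Spred1, chromosome 2, position 117131162, plus strand, resistant tumour 26, 1081 reads: TTAAaggc
Spred2, chromosome 11, position 19985194, minus strand, untreated tumour 5, 1824 reads: TTAAgcct
Lztr1, chromosome 16, position 17507609, plus strand, untreated tumour 13, 205 reads: TTAAaaaa
The Spred2 site was the fifth most read site of its tumour, with 1.16% of the reads of kept sites there. It was the only one of the 83 sites with at least 1% of such reads or among the 10 most read sites of its tumour.

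At 2 places, different tumours carried kept sites within 10 bp of each other, in each case in opposite orientations at one TTAA. These are shown because they are insertions of separate tumours at the same 4 bases, written on the plus strand.
Rasal2, chr1:157179857-157179868: ctgtTTAAagag
Spred1, chr2:117160101-117160112: gatgTTAAgact
The Rasal2 target held 10 reads on the minus strand in untreated tumour 17 and 56 reads on the plus strand in untreated tumour 6. The Spred1 target held 60 reads on the minus strand in resistant tumour 18 and 23 reads on the plus strand in untreated tumour 22. Of the 83 kept sites, 81 (97.6%) lay at TTAA, close to the 96.3% among all 101078 kept sites of the screen.

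Rasa1, Spred1 and Spred2 were hit in more resistant than untreated tumours by 11 to 12 percentage points, but neither these nor any other member passed the test between the groups. Of the 9 members, 5 were hit in at least 5 tumours and so entered the test, namely Rasa1, Rasa2, Rasal2, Spred1 and Spred2. All 5 had a higher share in resistant tumours, with a median difference of 11.3 points. Rasa2 and Spred1, hit in 3 and 4 untreated tumours, reached this minimum only through their resistant tumours. The genes also shared hit tumours, so the 5 are not separate observations. Among all 2558 gene regions tested, 53.1% had a higher share in resistant tumours and the median difference was 0.563 points. By Fisher's exact test (two-sided) with Benjamini-Hochberg adjustment, 0 of the 2558 regions differed between the groups (0%), and 77 had an unadjusted p under 0.05. Unadjusted p-values under 0.05 with a higher share in resistant tumours occurred in 60 regions (2.35%), of which Spred1 and Spred2 were 2.

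**Figure D1:**
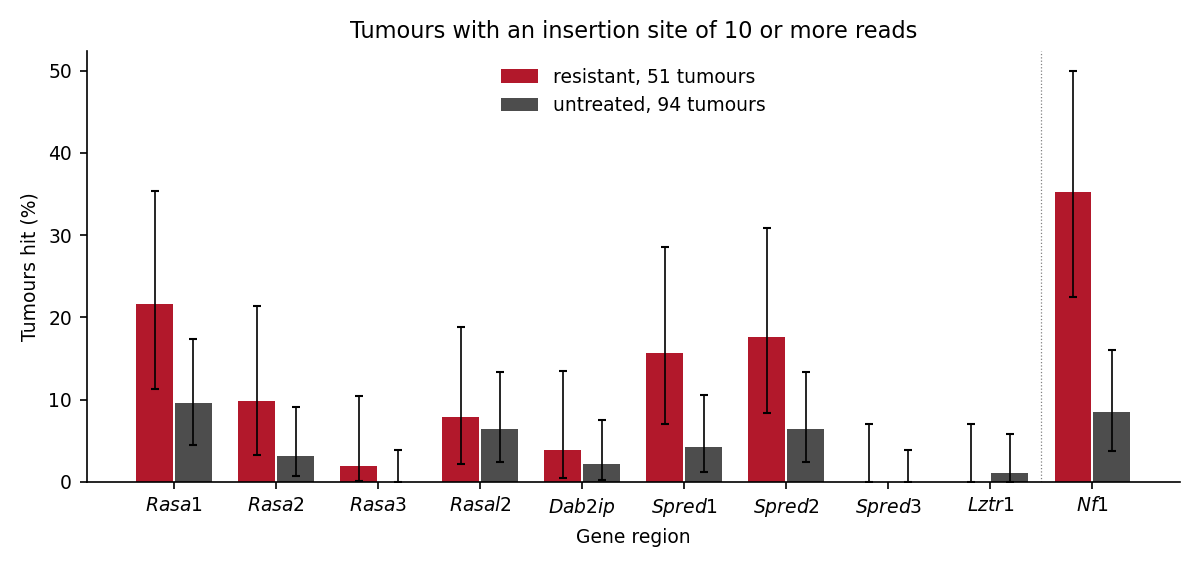
Percent of tumours with a kept insertion site in each gene region, for 51 resistant (red) and 94 untreated tumours (grey), with Clopper-Pearson 95% intervals; Nf1 stands apart at the right. Rasa1, Spred1 and Spred2 reached 21.6%, 15.7% and 17.6% of resistant tumours, against 9.57%, 4.26% and 6.38% of untreated tumours, and Spred3 had no kept site.

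Among the 9 genes, Nf1 not being one of them, Rasa1, whose product is recruited to activated receptors through its SH2 domains, was hit most often. Of the 51 resistant tumours 11 were hit, from 9 mice (21.6%, Clopper-Pearson 95% interval 11.3 to 35.3). Of the 94 untreated tumours 9 were hit, from 5 mice (9.57%, interval 4.47 to 17.4). The odds ratio was 2.58 with a 95% interval of 0.891 to 7.67 (exact p = 0.0750, adjusted p = 1). Its 14 sites in resistant tumours held 11 to 360 reads, with a median of 33.5, and its 10 sites in untreated tumours held 10 to 233 reads, with a median of 37. These ranges overlapped, and the highest value was in a resistant tumour. As a share of the tumour's kept reads the order was the other way, with 0.457% for the 233-read site, the 11th most read of untreated tumour 18, and 0.163% for the 360-read site of resistant tumour 44, which ranked 236.

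Rasa2 encodes a membrane-binding RAS GTPase-activating protein. Hits fell in 5 resistant tumours (9.80%, interval 3.26 to 21.4) and in 3 untreated ones (3.19%, interval 0.663 to 9.04; exact p = 0.130, adjusted p = 1). Its most read sites held 904 reads in resistant tumour 26 and 831 reads in resistant tumour 48. The second of these lay at position 96627046, 4.46 kb inside the gene. The other 5 sites in resistant tumours held 11 to 31 reads, and the 3 in untreated tumours held 27, 44 and 100 reads. As a share of the tumour's kept reads, the 904-read site held 0.0687% and ranked 390, and the 831-read site held 0.141% and ranked 107. The 100-read site of untreated tumour 23 held 0.0864% and also ranked 107.

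Rasal2, which spans 279 kb and is the longest of the 9 regions, had similar shares, with hits in 4 resistant tumours (7.84%, interval 2.18 to 18.9) and in 6 untreated ones (6.38%, interval 2.38 to 13.4; exact p = 0.741, adjusted p = 1). The odds ratio of 1.25 had a 95% interval of 0.246 to 5.56, which leaves room for a difference in either direction. Its 4 sites in resistant tumours held 20, 26, 448 and 632 reads, and its 7 sites in untreated tumours 10 to 135 reads, with a median of 56.

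Dab2ip and Rasa3 encode further GTPase-activating proteins of this class and were hit too rarely to be tested. Dab2ip had hits in 2 resistant tumours (3.92%), at sites of 35 and 148 reads, and in 2 untreated ones (2.13%), at sites of 43 and 191 reads. At the Dab2ip site with 43 reads in untreated tumour 91, resistant tumour 11 held 12 reads, which were not counted under the rule on shared positions. Rasa3 was hit in 1 resistant tumour (1.96%) and in 0 of 94 untreated tumours, which allows a share of up to 3.85% by the exact interval.

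Among the SPRED genes, Spred1 had hits in 8 resistant tumours of 7 mice (15.7%, interval 7.02 to 28.6) and in 4 untreated tumours of 4 mice (4.26%, interval 1.17 to 10.5). Its odds ratio was 4.14, with a 95% interval of 1.04 to 19.9 (exact p = 0.0256, adjusted p = 0.990). The 9 sites in resistant tumours held 10 to 1081 reads with a median of 48, and the 5 sites in untreated tumours held 15, 22, 23, 423 and 641 reads. The site of 641 reads lay 1.13 kb inside the gene in untreated tumour 63, where it held 0.588% of the kept reads, and the site of 1081 reads held 0.0822% of those in resistant tumour 26.

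Spred2 had hits in 9 resistant tumours of 6 mice (17.6%, interval 8.40 to 30.9) and in 6 untreated tumours of 5 mice (6.38%, interval 2.38 to 13.4). Its odds ratio was 3.12, with a 95% interval of 0.921 to 11.4 (exact p = 0.0455, adjusted p = 0.990). Reads per site ran from 13 to 499 with a median of 21 at the 11 sites in resistant tumours, and from 12 to 1824 with a median of 42 at the 7 sites in untreated tumours. Lztr1, in a region of 19.4 kb, was hit in 0 of 51 resistant tumours, which allows up to 6.98%, and in 1 untreated tumour (1.06%), at the site printed above, which lies at -1.6 kb from the annotated start, upstream of it.

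**Figure D2:**
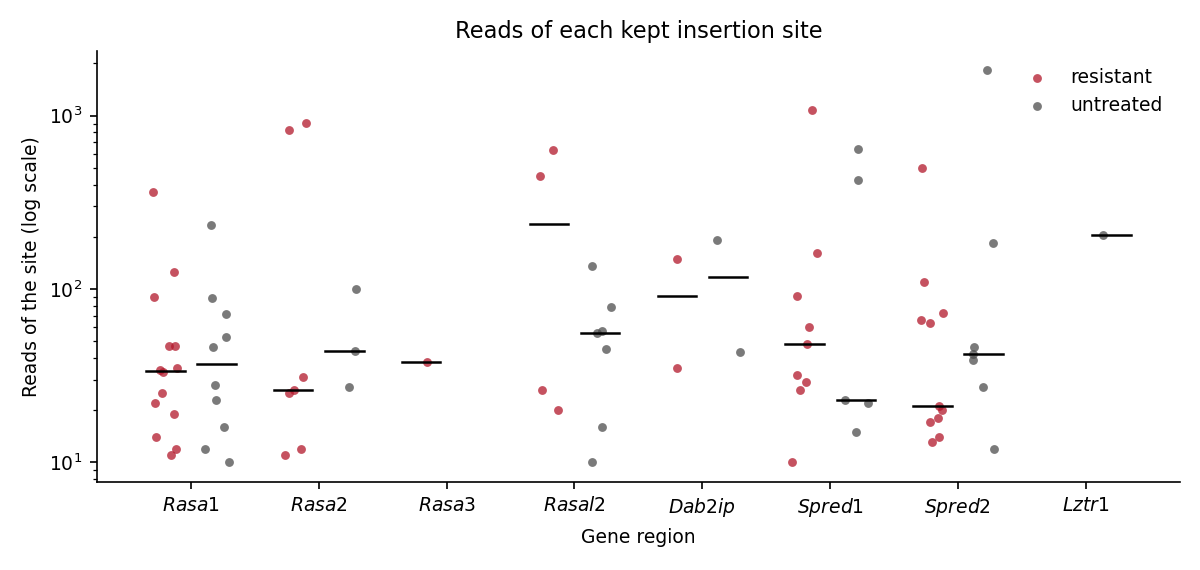
Reads of each of the 83 kept sites by gene region (log scale), with sites in resistant tumours (red) left of those in untreated tumours (grey) and a black bar at the median. The 4 most read sites, of 831 to 1824 reads, lay in Rasa2, Spred1 and Spred2, and in Rasa1, Rasa2, Rasal2, Dab2ip, Spred1 and Spred2 the ranges of the groups overlapped.

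Leaving out a mouse changed no call between the groups, and permuting the labels over mice, on the share of tumours hit, gave unadjusted p = 0.0120 for Spred1, 0.0824 for Spred2 and 0.127 for Rasa1. Counting mice with a hit tumour instead, Spred1 had hits in 7 of the 25 mice with resistant tumours and 4 of the 23 with untreated tumours (exact p = 0.499), Spred2 in 6 and 5 (exact p = 1) and Rasa1 in 9 and 5 (exact p = 0.349). The 94 untreated tumours came from fewer mice than the 51 resistant ones, so an untreated mouse had on average more tumours that could be hit. The count of mice was not adjusted for this. With at least 100 reads required few tumours were left, with Rasa1 hit in 2 resistant tumours and 1 untreated tumour, Spred1 in 1 and 2, and Spred2 in 2 and 2.

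For comparison, Nf1 had hits in 18 resistant (35.3%) and 8 untreated tumours (8.51%), a difference of 26.8 points (exact p = 0.000164, adjusted p = 0.419). The differences of Rasa1, Spred1 and Spred2, at 12, 11.4 and 11.3 points, were less than this.

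**Figure D3:**
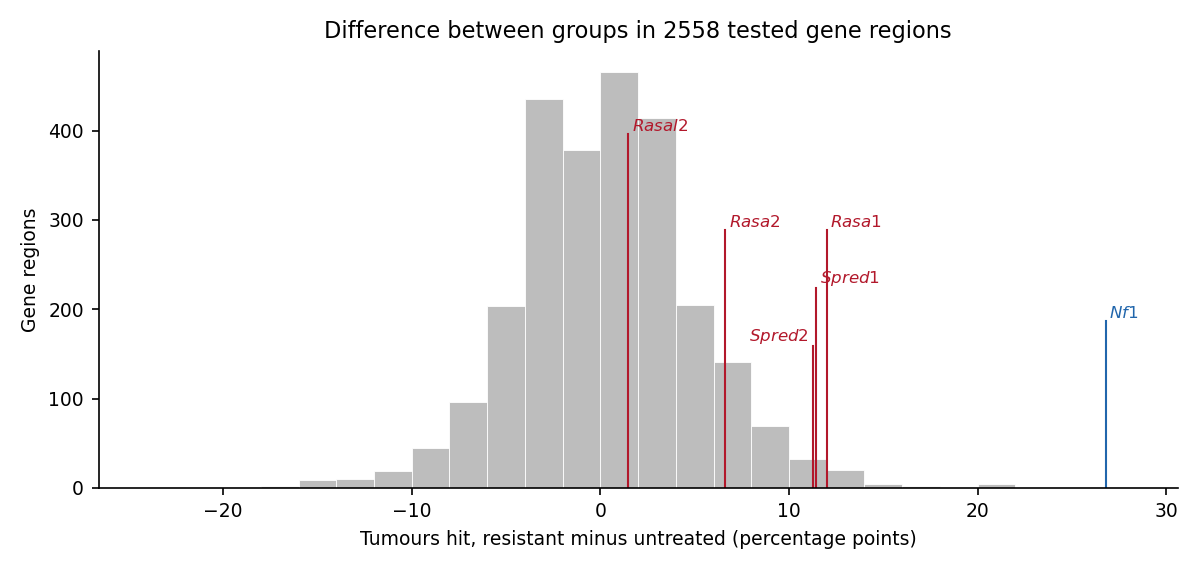
Histogram of the share of resistant tumours hit minus the share of untreated tumours hit, in percentage points, over the 2558 gene regions hit in at least 5 tumours; lines mark the 5 tested members (red) and Nf1 (blue). Rasal2 lay at 1.46 points within the bulk, Rasa2 at 6.61 points, and Rasa1, Spred1 and Spred2 between 11.3 and 12 points.

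A second question was whether a gene was hit in more tumours of its own group than its length and the number of sites in each tumour would give. For each gene region outside chromosome 10, where the donor element sits, the number of hit tumours was compared with this expectation by a one-sided exact Poisson-binomial test, with Benjamini-Hochberg adjustment over 12557 regions. The expectation took in length and site number only, so other differences between regions in how readily the element inserts were not accounted for. Over all regions with any hit, the median was 1.63-fold in resistant and 1.43-fold in untreated tumours. Among resistant tumours 27 regions passed (0.215%), and Rasa1, Spred1 and Spred2 were among them. Rasa1 was hit in 11 resistant tumours where 1.28 were expected, 8.62-fold (adjusted p = 1.91e-05). Spred1 was hit in 8 where 1.06 were expected, 7.58-fold (adjusted p = 0.00545), and Spred2 in 9 where 1.65 were expected, 5.46-fold (adjusted p = 0.0136). Nf1 exceeded its expectation 4.72-fold (adjusted p = 1.77e-06).

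In untreated tumours 23 regions passed (0.183%), and 0 of the 9 members were among them. Rasa1 came nearest, hit in 9 tumours where 1.96 were expected, 4.59-fold (adjusted p = 0.0570), and its adjusted p ran from 0.0391 to 0.876 as each mouse was left out. Spred1 exceeded its expectation 2.47-fold (adjusted p = 0.970) and Spred2 2.36-fold (adjusted p = 0.905). That a gene passed in resistant and not in untreated tumours does not show that the groups differ, and the direct comparison above did not pass. Rasa2 stood at 3.21-fold in resistant tumours (adjusted p = 0.909) and 1.25-fold in untreated tumours (adjusted p = 1). Rasal2 stood at 0.926-fold in resistant tumours and 0.891-fold in untreated tumours, near what its length gives, and Dab2ip at 0.715-fold and 0.462-fold. With mice in place of tumours Spred2 did not pass in the resistant group (6 mice, 3.79-fold, adjusted p = 0.399). Rasa1 (9 mice, 7.28-fold, adjusted p = 0.000539) and Spred1 (7 mice, 6.81-fold, adjusted p = 0.0200) passed there. With the 100 most read sites of each resistant tumour, none of Rasa1, Spred1 and Spred2 passed, whereas Nf1 did (adjusted p = 0.0228). Rasa1 passed without any single mouse, whereas Spred1 did not without resistant mouse 5 (adjusted p = 0.0659), nor Spred2 without resistant mouse 4 (0.115), mouse 5 (0.304) or mouse 18 (0.0542). With at least 100 reads none of the 3 genes passed, at 2, 1 and 2 hit resistant tumours for Rasa1, Spred1 and Spred2, and without the 6 resistant tumours with over 2000 kept sites Rasa1 alone of them passed (9.71-fold, adjusted p = 0.00724), with Spred1 at 5.04-fold (adjusted p = 1) and Spred2 at 5.34-fold (adjusted p = 0.444).

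**Figure D4:**
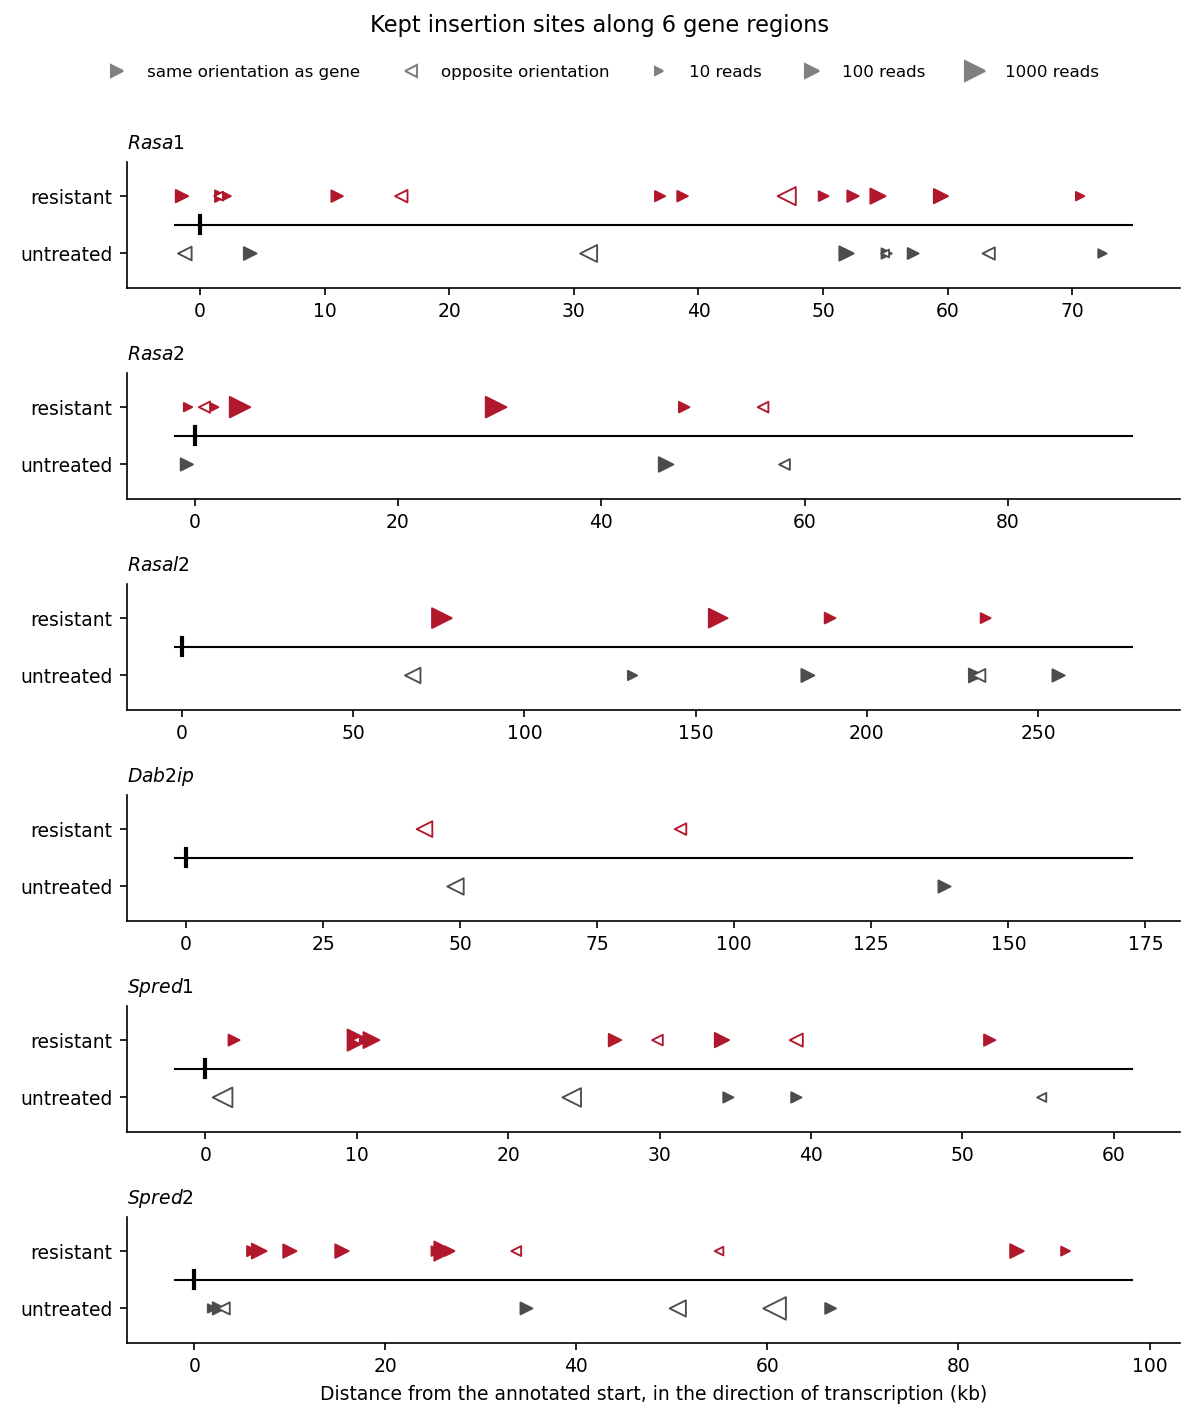
Kept sites along 6 gene regions, as distance from the annotated start in kb in the direction of transcription (thick tick at 0), with resistant tumours above the gene line and untreated tumours below it. Filled triangles mark sites listed on the strand of the gene and open ones sites on the other strand, and size grows with reads. Rasa1 and Spred2 had 17 of 24 and 13 of 18 sites on the strand of the gene.

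Sites were spread along the genes, and apart from the paired targets above no kept sites of different tumours lay within 10 bp of each other. In Rasa1 they ran from -1.45 kb, upstream of the start, to 70.6 kb inside the gene in resistant tumours, and from -1.22 kb to 72.4 kb in untreated tumours. In Spred2, 8 of the 11 resistant sites and 4 of the 7 untreated sites lay in the first part of the gene, up to its midpoint. The same count was 6 of 9 and 2 of 5 in Spred1, and 7 of 14 and 3 of 10 in Rasa1. The Rasa1 counts take in its sites upstream of the start, at -1.45 kb and -1.22 kb. In Rasal2 only 1 of 4 resistant sites and 2 of 7 untreated sites lay there. None of the 83 sites fell in the RefSeq promoter windows of the members, which run from 250 bases before to 50 bases after each start, and 5 lay upstream of the start. Exons and introns could not be assigned here.

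The strand listed for a site was taken as the orientation of the element, which was not checked. On this reading the element lay in the orientation of the gene at 35 of the 48 sites of resistant tumours and 21 of the 35 of untreated tumours. Over both groups it did so at 17 of 24 Rasa1 sites (70.8%, exact binomial p = 0.0639), 9 of 11 Rasal2 sites (81.8%, p = 0.0654), 13 of 18 Spred2 sites (72.2%, p = 0.0963), 7 of 10 Rasa2 sites and 8 of 14 Spred1 sites. All 4 Dab2ip sites but 1 lay against the gene. After adjustment 2 of 819 regions with at least 10 sites passed (0.244%), 31 had an unadjusted p under 0.05, and no member was among either. The pooled share over all kept sites of the screen was not computed, and some tumours held several of the sites counted here. At 100 or more reads, 1 of 3 Rasa1, 3 of 3 Rasa2, 2 of 3 Rasal2, 2 of 4 Spred1 and 2 of 4 Spred2 sites lay with the gene.

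Insertions in several of these genes often fell in the same tumours. At least 1 member was hit in 21 of 51 resistant tumours (41.2%, 27.6 to 55.8) and 20 of 94 untreated tumours (21.3%, 13.5 to 30.9). At least 2 members were hit in 10 resistant and 7 untreated tumours, and at least 3 in 6 resistant and 2 untreated tumours. Resistant tumour 12 had the most, with Rasa1, Rasa2, Rasal2, Spred1 and Spred2 all hit. Of the 8 resistant tumours hit in Spred1, 7 were also hit in Rasa1 and 5 in Spred2. In untreated tumours Spred1 and Rasa1 were hit together in 1 tumour, and Spred1 and Spred2 in 2. Other genes shared tumours to a like degree, by tumours hit in both genes over tumours hit in either, groups pooled. Rasa1 stood at 0.346 with Msi2, 0.333 with Nrxn3 and 0.333 with Spred1, and its median over 760 regions was 0.148. Spred1 stood at 0.375 with Klhl13. The shared hits therefore cannot be called particular to these genes.

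Tumours hit in a member also had more insertion sites in all. Resistant tumours hit in a member had a median of 910 kept sites, against 333 in the other resistant tumours, and for untreated tumours the medians were 1259.5 and 356.5. For Rasa1 they were 1033 and 415.5 in resistant tumours, and 1408 and 378 in untreated tumours. For Spred1 they were 2191.5 and 428 in resistant tumours, and 1385 and 426.5 in untreated tumours. Between the groups the median number of kept sites was 473 in resistant and 431 in untreated tumours, with a range of 0 to 3321 and 0 to 3017, and the median library held 136932 and 48339 reads. The part of site number and depth in the shared hits and in the group differences was not tested.

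**Figure D5:**
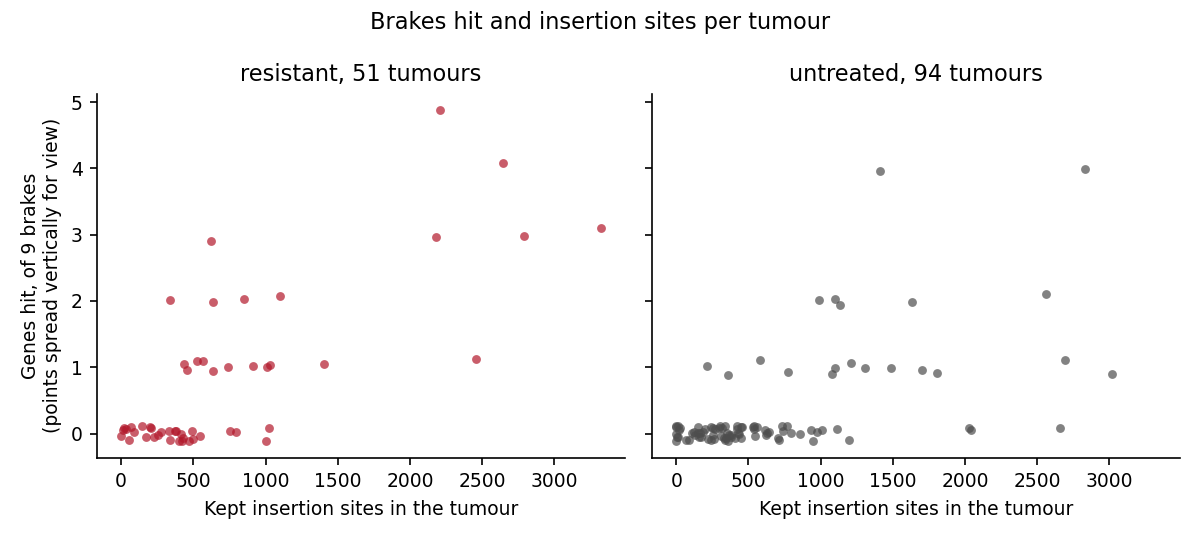
Number of the 9 genes hit in each tumour against its kept insertion sites, for 51 resistant tumours (left) and 94 untreated tumours (right). Of the 6 resistant tumours with 3 or more genes hit, 5 had over 2000 kept sites, and the 2 untreated tumours with 4 genes hit had 1408 and 2832.

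Nf1 and the members were also hit together. Of the 18 resistant tumours hit in Nf1, 14 (77.8%) were hit in a member too, against 21.2% of the resistant tumours without an Nf1 hit. In untreated tumours it was 4 of 8, against 18.6%. Rasa1 and Nf1 shared 8 resistant tumours and 1 untreated tumour. The resistant tumours hit in Nf1 had a median of 955.5 kept sites and the others 370, so they too were richer in sites. The same shares for other gene regions were not computed, so the overlap cannot be called particular to these genes. Nf1 or a member was hit in 25 of the 51 resistant and 24 of the 94 untreated tumours (25.5%), and 26 resistant tumours (51.0%) had neither.

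The titles of the samples had different forms in the groups, so a technical difference between forms cannot be told apart from treatment. Within the resistant group, Rasa1 was hit in 10 of 35 tumours with Tgtumor titles and 1 of 16 with Mouse titles, Spred1 in 8 and 0, and Spred2 in 7 and 2. In the untreated group, Rasa1 was hit in 9 of 61 tumours with TgTum titles and 0 of 33 with tgTum titles, Spred1 in 3 and 1, and Spred2 in 6 and 0. The median number of kept sites was 637 for Tgtumor, 241.5 for Mouse, 730 for TgTum and 258 for tgTum titles. For Rasa1, Spred1 and Spred2, the form with fewer sites had the lower share of hit tumours in both groups. The order was the other way in untreated tumours for Dab2ip, with 1.64% of TgTum and 3.03% of tgTum tumours hit. The same held for Nf1, with 8.20% and 9.09%. Per 10000 kept sites of the form, the 9 genes held 13.1 for Tgtumor, 11.2 for Mouse, 6.04 for TgTum and 2.19 for tgTum titles. Within the TgTum form the hits were uneven over mice. Apart from untreated tumour 56 of mouse 14, hit in Dab2ip, all TgTum tumours with a hit member came from untreated mice 1 to 8. No member was hit in untreated mice 9 to 13 and 15. Their most site-rich tumours, untreated 43, 35 and 38, had 2660, 2043 and 1199 kept sites, and their others had 1008 or fewer. The rate for TgTum titles therefore pools unlike mice. The part of site number in the differences between forms or between these mice was not tested. Set against all untreated tumours, the Mouse tumours differed by -3.32 points for Rasa1 and -4.26 points for Spred1, and the Tgtumor tumours by 19 and 18.6 points (exact p = 0.0112 and 0.00314, adjusted p = 0.492 and 0.465).

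Other brakes of the same pathway gave a wider view. Of 20 further genes (other GTPase-activating proteins, Sprouty genes, MAP kinase phosphatases and receptor ubiquitin ligases), 13 had a region and 3 were hit in at least 5 tumours. Cul3, the scaffold of the ligase that LZTR1 serves, had hits in 11 resistant (21.6%) and 11 untreated tumours (11.7%; exact p = 0.146, adjusted p = 1). It exceeded its expectation in both groups, 8.75-fold in resistant tumours (adjusted p = 1.82e-05) and 5.70-fold in untreated tumours (adjusted p = 0.00392). Cblb, a ubiquitin ligase for activated receptors, was hit in 3 resistant and 10 untreated tumours, and its relative Cbl in 1 and 4. Of 19 genes of the cascade itself, from receptors and RAS to ERK, 14 had a region and 3 were tested. The single one hit in at least 10 tumours was Egfr, the epidermal growth factor receptor, in 3 resistant and 8 untreated tumours. None of the 6 tested genes of these lists passed the test between the groups.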

How the data were processed

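Genomic DNA of 51 resistant and 94 untreated tumours was sequenced by splinkerette PCR in 4 pools with paired reads of 100 bp, per the labels' protocols. Per the submitters' processing notes, reads were placed on mm10; which aligner and site caller were run is not given in the sources used here. Unscaled read counts per site and library made up the deposited site table, per the file headers, and 725 further per-sample columns were not used. A second deposited table gave, per gene region and group, the authors' counts of tumours with an insertion, the percent of tumours hit, and a signed −log10 p score of the authors' common integration site test. Symbols came from gene identifiers and starts and strands from RefSeq (GRCm38.p6). The regions of the members began 1289 to 2000 bp upstream of the RefSeq edge of the gene. For some members that edge lies upstream of the annotated start from which distances were measured. Ties at 10 or more reads (12 positions) went to the earlier library.

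The members, lists and tests were chosen with earlier results of these data known. Members, Nf1, further brakes hit in at least 5 tumours, cascade genes hit in at least 10, and the 3 regions most like each of the 3 most hit members are named. Sites are named when they were the most read of a member, among the 10 most read or at 1% of reads of a tumour, or within 10 bp of a site of another tumour; other sites and tumours mentioned were chosen after their values were seen. Fisher's exact, Poisson-binomial and binomial tests used Python 3.11.15, numpy 2.4.6, pandas 2.3.3 and scipy 1.17.1 with a threshold of 0.05, and were tested on simulated data. Library totals ran from 51 to 1604365 reads in resistant and from 2950 to 938987 in untreated tumours. Reads carry no molecular identifiers, and the 95% intervals cover counting of tumours only. Tumours of a mouse are not independent; the titles name 48 mice and the labels state 53. The untreated library 88, with R2 in its title, names the same mouse and gland as library 58, so the 94 untreated tumours are 93 if both are one tumour; leaving it out changed no call between the groups. Alternatives changed the read minimum, the rule on shared positions, the gene minimum, the libraries and the unit counted.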

Additional observations from a re-analysis of the deposited data

Results flagged for a closer look

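In the authors' deposited table, Spred1 had an insertion in 32 resistant tumours (62.75%) and 11 untreated tumours (11.7%), values outside the comparison above, which found 8 and 4 (Fisher's exact test on the authors' counts, two-sided, unadjusted p = 3.45e-10). These counts equal the number of tumours with any read in the region. One position, 117132036 on the plus strand of chromosome 2, had reads in 30 libraries, all of resistant tumours with Tgtumor titles, with 162 reads in resistant tumour 26 and 1 to 6 in the other 29. Without that position, 10 resistant and 11 untreated tumours had a read in Spred1. What placed these reads was not tested. The authors' deposited table also listed Rasa2 in 17.65% of resistant and 5.32% of untreated tumours (unadjusted exact p = 0.0353), against 9.80% and 3.19% at 10 or more reads. Of the 9 members compared in this way, the other 7 did not pass.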

How the results depend on the processing

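No gene region differed between the groups under most alternatives; 1 did at 0.1% of a tumour's reads, 1 with tgTum tumours as the untreated group, and 14, Nf1 among them (adjusted p = 0.0332), when shared positions were kept in every tumour. No member passed in any alternative (lowest adjusted p = 0.196, Rasa1 against tgTum). Leaving out each mouse gave 0 regions throughout. Recurrent regions, 27 in resistant and 23 in untreated tumours, became 63 and 122 with the whole genome as length, 10 and 7 at 100 reads, 6 and 2 with the 100 most read sites, 44 and 41 with shared positions kept, 15 and 10 with mice in place of tumours, and 13 and 10 without the 6 resistant and 7 untreated tumours above 2000 kept sites; leaving out each mouse gave 20 to 30 and 13 to 28, the lowest without untreated mouse 6 or 8. Rasa1 in untreated tumours passed with the whole genome (adjusted p = 0.00518), shared positions kept (0.0479) and TgTum titles alone (0.0275). Spred2 in resistant tumours did not pass with mice (0.399) or Tgtumor titles alone (0.134). Differences in share turned for Spred1 at 100 reads, at 0.1% of reads and with the 100 most read sites (each -0.17 points), there also for Rasa1 (-0.17) and Spred2 (-1.06, with 0-fold of its expectation in resistant tumours), and with Mouse tumours alone for Rasa1 (-3.32), Rasal2 (-6.38) and Spred1 (-4.26). Rasal2 turned against TgTum (-1.99), over mice (-5.74) and without site-rich tumours (-1.30), and was at or below 0 in 4 of the 48 fits without a mouse, which ran from -0.38 to 3.25 over all 48. Dab2ip, with too few hits to be tested, turned with Mouse tumours (-2.13), at 5 reads (-0.33), over mice (-0.70) and without site-rich tumours (-0.077). At 100 reads 1 of 3 Rasa1 sites (33.3%) lay with the gene. Fewer hits were left at 100 reads, at 0.1% of reads and with the 100 most read sites. What turned these differences was not tested. The choices of leaving out mice, title forms or site-rich tumours in the recurrence test, and site-rich tumours in the comparison, were made after seeing the data. No paired analysis was possible because replicate numbers follow accession order and no mouse gave tumours to both groups.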

Other observations

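In the authors' deposited table the signed −log10 p score of their common integration site test was 7.91 in resistant and 2.01 in untreated tumours for Rasa1, 6.84 and 2.36 for Spred2, 5.22 and 1.86 for Spred1, and 27.7 and 1.5 for Nf1. It was -0.45 in resistant and -0.57 in untreated tumours for Rasal2, 1.69 and 0 for Rasa2, and 0.171 and 0 for Rasa3. It was lower in resistant tumours for Dab2ip (0.81 and 1.28), Spred3 (0 and 0.666) and Lztr1 (0 and 0.504).

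By the share of hit tumours in common (tumours hit in both genes over tumours hit in either, with both groups pooled), the regions most like Rasa1 among 760 hit in at least 10 tumours were Msi2 (0.346), Nrxn3 (0.333) and Spred1 (0.333), with a median of 0.148 over all candidates. Those most like Spred2 were Mid1 (0.368), Gucy1a2 (0.350) and Spred1 (0.350), and those most like Spred1 were Klhl13 (0.375), Msi2 (0.350) and Spred2 (0.350).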
